A study of Mus musculus with 2 samples.

Results

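The translation initiation factors bring the ribosome, the initiator tRNA and the mRNA together at the start codon. On the array used here they comprised 56 genes, all those among the 29608 gene names of non-control spots whose symbol begins with Eif and a digit. The rule rested on names alone and used no measured value, though it was set with earlier results of these data known. The cells were 661W, a mouse line described as photoreceptor cells, and both cultures were kept for 3 days in DMEM/F12, one without choline and one with it. Choline feeds the synthesis of phosphatidylcholine, a main membrane lipid. According to the labels the sufficient medium held 8.98 g/L of it, and the growth protocol lists 10% fetal bovine serum for the line without saying whether the choline-deficient culture had it. Each condition is 1 Agilent single-colour array. The design text mentions RNA pooled from 4 dishes and does not say how they were divided. Differences therefore come without a check by replicates and without p-values, and condition cannot be told apart from array or culture. With bulk RNA, fewer cells of a kind and less RNA per cell cannot be told apart.

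In cap-dependent initiation eIF2 carries the initiator tRNA to the small ribosomal subunit, and eIF2B reloads eIF2 with GTP. The eIF2 kinases phosphorylate the alpha subunit of eIF2 under stress, which blocks eIF2B and lowers overall translation while favouring mRNAs such as that of Atf4. The large eIF3 complex holds the small subunit ready, and eIF4E binds the mRNA cap together with the scaffold eIF4G and the helicase eIF4A. The eIF4E-binding proteins keep eIF4E from the scaffold until the kinase mTORC1 phosphorylates them. eIF1, eIF1A and eIF5 act in start codon choice, eIF5B joins the subunits, eIF6 keeps the large subunit apart and eIF5A helps the ribosome through difficult stretches during elongation.

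Of the 56 genes 55 were measured, meaning that a probe was well above background and not saturated on both arrays. The exception was Eif4e1b, a germ cell relative of Eif4e, whose probes were not well above background on either array. The 55 genes rested on 86 measured probes, and 35 genes had 1 measured probe each. A level is the log2 processed signal minus the array's 75th percentile, and a difference is the level on the choline-deficient array minus that on the choline-sufficient array. The error after ± is the scanner software's own estimate and leaves out variation between cultures. Its median was 0.20 in the family and over all genes. It was close to that value for bright and moderately dim probes alike and larger only for the dimmest, so it hardly tells genes apart. Probe positions are on the mouse build mm9, as in the files.

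Non-control spots well above background made up 70.7% on the choline-deficient and 68.5% on the choline-sufficient array, and 0 were saturated. Of 12 cone markers 6 were measured on both arrays, while the cone opsin gene Opn1sw, Cngb3 and the photoreceptor transcription factor gene Crx were above background on neither, and of 5 rod markers only Gnat1 was measured. Cnga3, Guca1a and Pde6c were above background on 1 array only. The cone markers had a summed level, as a multiple of the array's 75th percentile signal, of 0.444 on the choline-deficient and 0.291 on the choline-sufficient array. Gnat2 and Gngt2 made up most of both sums. Of the 6 differences 5 were above 0, and that of Arr3 was -0.41. Of 5 fibroblast markers 4 were measured, with a summed level of 65.4 on the choline-deficient and 7.60 on the other array, and Lum was above background on neither array. Col1a1 was 13.5-fold, Col1a2 8.52-fold and Pdgfra 3.45-fold higher without choline. Col1a2, with levels of 5.96 and 2.87, made up most of both fibroblast sums. The Muller glia markers summed to 2.13 against 1.11 over 2 measured of 5, with Kcnj10 and Sox2 above background on neither array. All 4 macrophage markers were measured, at a summed level of 0.084 on both arrays. Csf1r made up most of it, and Ptprc, Adgre1 and Cx3cr1 were dim. The 3 ganglion cell markers summed to 0.026 against 0.041. The part of these markers' differences in those of the initiation factors was not tested.

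Most initiation factors had slightly lower levels, as scaled here, without choline. Of the 55 measured, 0 were 2-fold apart, where 7.67% of all 19816 measured genes were 2-fold higher and 3.88% lower. At 1.5-fold 12 members were lower without choline, or 21.8%, against 14.1% of all genes. Eif3h was the 1 member (1.82%) that was 1.5-fold higher, against 14.8% of all genes. The family's median difference was -0.34, with quartiles of -0.53 and -0.15, and the median of all measured genes was -0.10. Differences were below 0 for 45 members, or 81.8%, against 57.4% of all genes. The counts depend on the scaling. With the arrays scaled to spike-in probes 4 members passed 1.5-fold upward and 0 downward, and 31 of 55 were below 0, while 24.2% of all genes passed upward and 5.96% downward. With the arrays scaled to their medians 0 members passed upward and 21 downward, against 12.0% and 20.3% of all genes. These scalings add a constant of 0.27 and -0.12 to every difference and leave the distances between genes as they are.

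**Figure D1:**
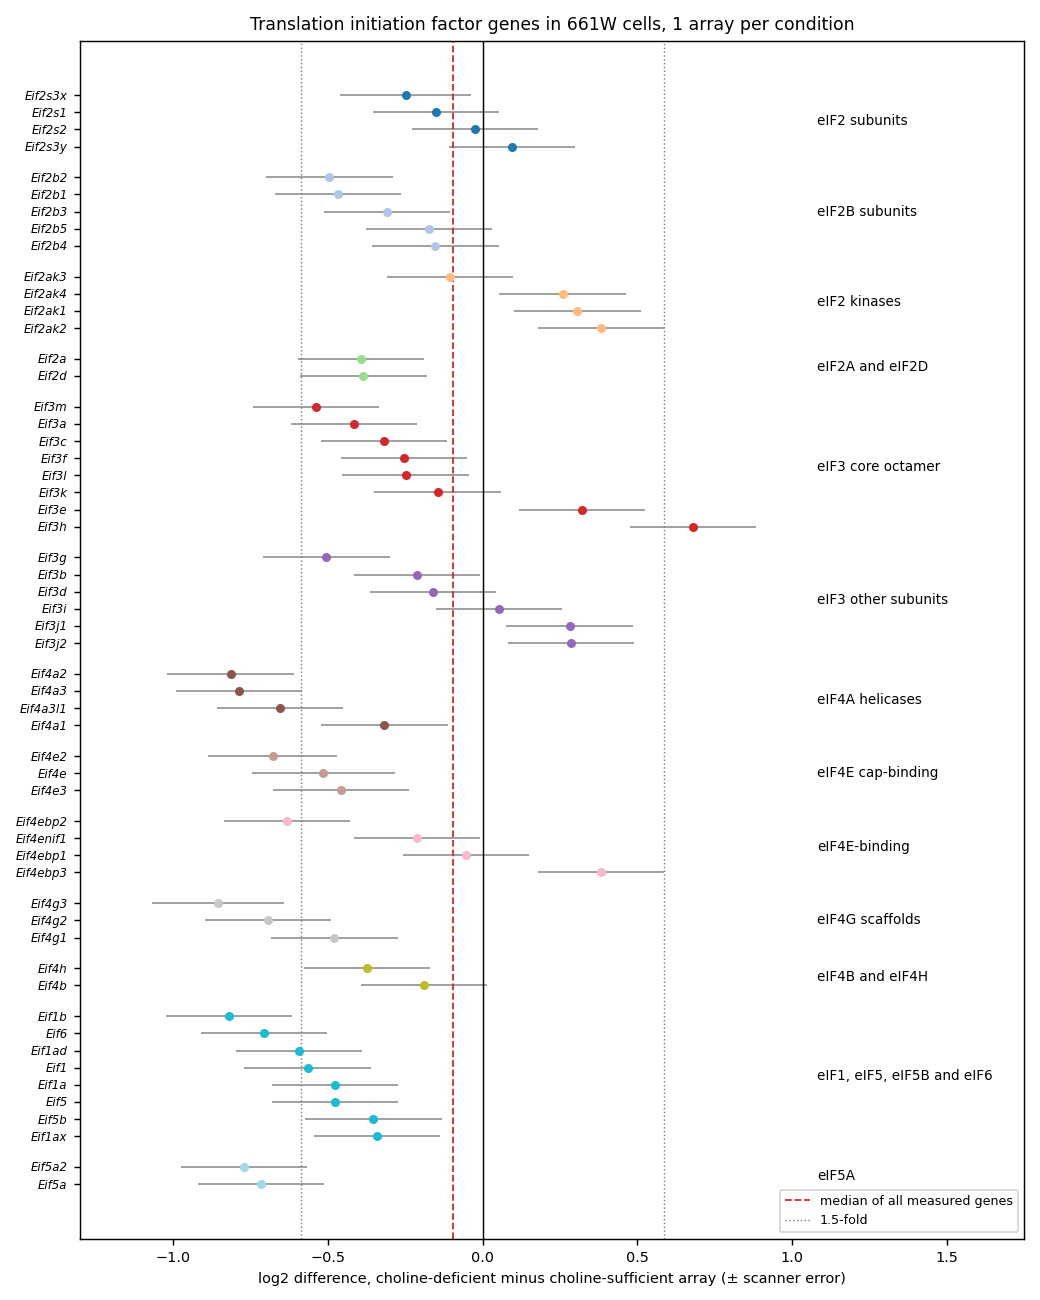
Log2 difference of each of the 55 measured genes between the choline-deficient and the choline-sufficient array, by group, with the scanner error as a bar. Dotted lines mark 1.5-fold and the dashed line the median of all measured genes (-0.10). The eIF4 genes lie mostly to the left, and 3 of 4 eIF2 kinases lie right of 0.

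Bright genes as a whole leaned lower on the choline-deficient array. Measured genes were split by mean level into 5 bins of equal size, and in the brightest bin the 3933 genes outside the family had a median of -0.26, with 16.9% of them 1.5-fold lower and 5.92% higher. That bin held 31 initiation factors, with a median of -0.42, of which 7 were 1.5-fold lower and 1 higher. Of the 27 members whose mean level lay between the family's own quartiles (0.38 and 4.00), 8 were 1.5-fold lower, or 29.6%, and 0 higher, against 16.9% and 10.1% of the 4770 other genes in that range. Their median was -0.25, against -0.18. After cyclic loess, which removes such a dependence on level, the family's median was -0.19 and that of all genes -0.01, with 6 members (10.9%) 1.5-fold lower and 1 higher, against 10.9% and 16.3% of all genes. After quantile normalization 7 members (12.7%) were 1.5-fold lower, against 14.1% of all genes. The larger share of lower members in the main processing was thus absent after both of these normalizations, as it was with spike-in scaling.

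**Figure D2:**
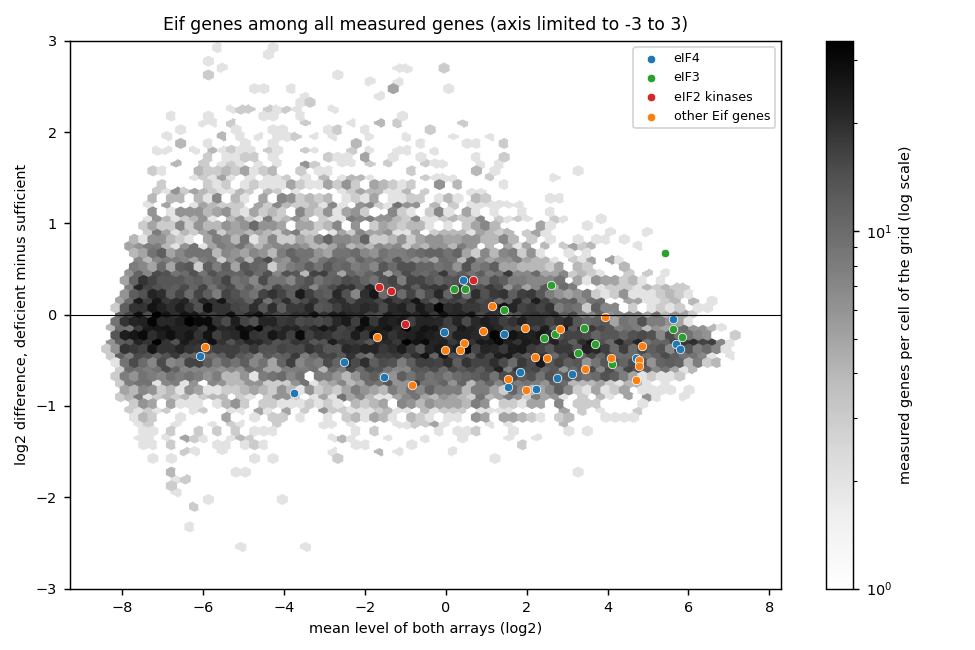
Difference against mean level for all measured genes (grey, darker where more genes fall) with the initiation factors in colour. The vertical axis is limited to -3 to 3. Grey density leans below 0 at the bright end, where 31 of the 55 members lie, and Eif3h stands above the others there.

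The groups differed in their medians. The genes named eIF4, most of which act at the cap, had a median of -0.50 over 16 measured genes, with 7 of them 1.5-fold lower and 0 higher, beside the 14.1% and 14.8% of all genes. The 14 eIF3 genes had a median of -0.19, with 0 lower and 1 higher. The 4 eIF2 subunit genes had -0.09 and the 5 eIF2B genes -0.31, with 0 past 1.5-fold in either group. The 4 eIF2 kinase genes had 0.28, also with 0 past 1.5-fold. Groups of 4 or 5 genes are too small for a count of 0 to stand out from those shares. The gap between the eIF4 and eIF3 medians was -0.31, and it lay between -0.52 and -0.28 over 10 other ways of processing the arrays. That between eIF4 and the eIF2 kinases was -0.78, between -0.82 and -0.71 over the same 10. The gap between eIF3 and the eIF2 subunits was -0.10, within the scanner error of single genes. Median scaling, spike-in scaling and the deposited values shift all genes alike, so these members of the 10 could not change the gaps. The gaps describe a pair of arrays and were not tested. The eIF3 median itself was 0.09 with spike-in scaling, 0.07 after cyclic loess and 0.01 after quantile normalization, so its sign is not settled, and the same holds for the eIF2 subunits at 0.18, 0.11 and 0.05. The eIF4 count depends on the processing too. After quantile normalization and after cyclic loess 4 eIF4 genes were 1.5-fold lower, against 14.1% and 10.9% of all genes. With spike-in scaling 0 were lower and 1 higher, against 5.96% and 24.2% of all genes.

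**Figure D3:**
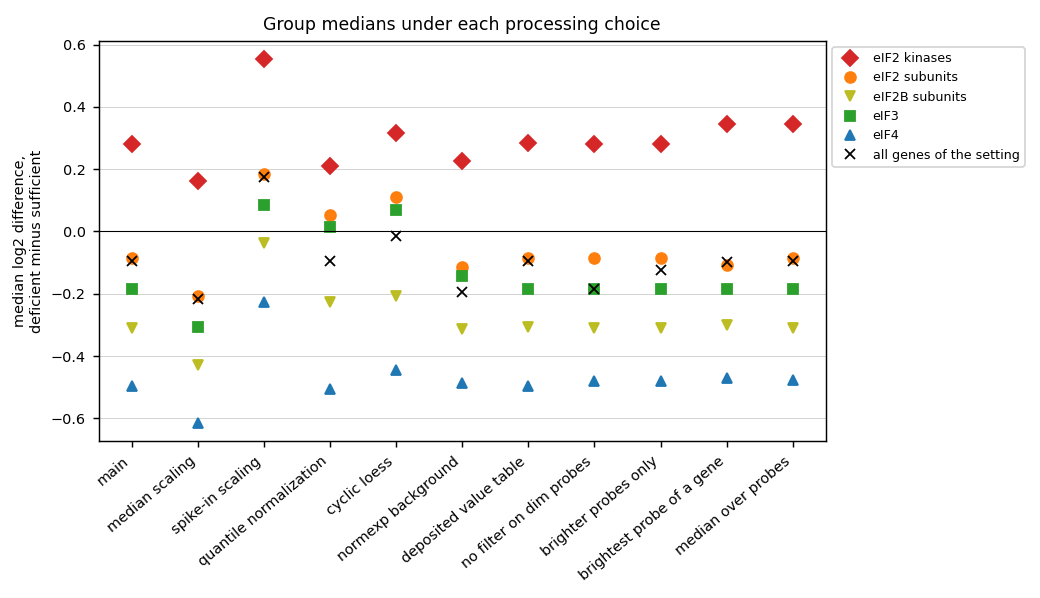
Median difference of 5 groups and of all genes under the main processing and 10 alternatives. The eIF4 median (triangles) is the lowest in every column and the eIF2 kinase median (diamonds) the highest, while the eIF2 subunit and eIF3 medians cross 0 between columns.

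Among the helicases Eif4a2, a close relative of the main helicase gene Eif4a1, had a level of 1.82 on the choline-deficient and 2.63 on the choline-sufficient array. It was 1.76-fold lower, with a difference of -0.81 ± 0.20, and its probes at chr16:23110158-23110217 and chr16:23113939-23113998 gave -0.95 and -0.68. Eif4a3, the helicase of the exon junction complex, had levels of 1.16 and 1.94 and was 1.73-fold lower, at -0.79 ± 0.20 (chr11:119154913-119154972). Its near-identical copy Eif4a3l1 had levels of 2.79 and 3.44 and was 1.57-fold lower, at -0.65 ± 0.20 (chr6:136279839-136279898). Whether each probe binds both copies was not tested. Eif4a1 had -0.32 ± 0.20, and -0.01 after cyclic loess. All 4 helicase genes were below 0 in each of 10 alternatives, and 3 of them passed 1.5-fold in the main processing, though 0 did with spike-in scaling.

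Among the scaffolds Eif4g3 had the largest difference of the family below 0. Its levels were -4.19 and -3.34 and it was 1.81-fold lower, at -0.85 ± 0.21. Of its 4 measured probes, the one with the strongest signal (chr4:137762115-137762174) gave -0.99. The 3 dim ones, at chr4:137640225-137640284, chr4:137672097-137672156 and chr4:137682429-137682488, gave -0.05, -0.94 and -1.44. Eif4g2, whose product lacks the eIF4E-binding part and serves cap-independent initiation, had levels of 2.41 and 3.11 and was 1.62-fold lower, at -0.69 ± 0.20 (chr7:118216077-118216136). Eif4g1, the main scaffold gene, had levels of 4.46 and 4.94 and a difference of -0.48 ± 0.20, short of 1.5-fold. The accessory factor genes Eif4h and Eif4b, which stimulate the helicase, had -0.37 ± 0.20 and -0.19 ± 0.20, the latter 0.08 with spike-in scaling.

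Of the cap-binding genes, Eif4e2, whose product competes for the cap and can repress translation, had levels of -1.86 and -1.19 and was 1.60-fold lower, at -0.68 ± 0.21. Its 3 probes (chr1:89122748-89122807, chr1:89125366-89125425 and chr1:89137004-89137063) gave -0.46, -0.80 and -0.77. The first of these is by far the brightest, and by it alone Eif4e2 was under 1.5-fold. Eif4e3 had 1 dim probe and a difference of -0.46 ± 0.22. Eif4e itself, with levels of -2.79 and -2.27, averaged -0.51 ± 0.23 over 4 measured probes that did not go the same way. The probe sequences are given here because the value of Eif4e turns on them. They run in the direction of transcription, and capitals mark AATAAA, the common polyadenylation signal, which 13.6% of all measured probes and 16.3% of those of the family contain.
Eif4e, probe 1, chr3:138189716-138189775 (+ strand): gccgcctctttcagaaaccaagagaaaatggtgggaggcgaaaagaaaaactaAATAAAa
Eif4e, probe 2, chr3:138219236-138219295 (+ strand): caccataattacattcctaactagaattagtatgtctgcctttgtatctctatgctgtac
Eif4e, probe 3, chr3:138220427-138220486 (+ strand): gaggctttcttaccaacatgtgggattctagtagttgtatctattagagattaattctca
Eif4e, probe 4, chr3:138220833-138220892 (+ strand): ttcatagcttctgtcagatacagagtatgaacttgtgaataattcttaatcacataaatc
Probe 1, annotated to an Ensembl transcript, holds the AATAAA and was dim, with levels of -6.45 and -5.03 and a difference of -1.43 ± 0.23. Probe 2 was the bright one, at 2.36 and 3.29, and gave -0.92 ± 0.20, which alone would put Eif4e past 1.5-fold lower. Probe 3, farther downstream, had levels of 0.13 and 0.15 and a difference of -0.02 ± 0.20. Probe 4, the last, was dim again at -7.18 and -7.50 and gave 0.32 ± 0.29. The difference thus went from below to above 0 along the gene, and Eif4e stayed below 0 in each of 10 alternatives, between -0.92 with the brightest probe and -0.24 with spike-in scaling.

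The eIF4E-binding protein genes differed among themselves. Eif4ebp1, the best known of them, had levels of 5.59 and 5.64 and a difference of -0.05 ± 0.20 (chr8:28385887-28385946), and its sign turned in 3 of 10 alternatives. Eif4ebp2 had levels of 1.53 and 2.16 and was 1.55-fold lower, at -0.63 ± 0.20 (chr10:60895379-60895438). Eif4ebp3 had levels of 0.62 and 0.24 and a difference of 0.38 ± 0.20 in the other direction (chr18:36825278-36825337). Eif4ebp2 and Eif4ebp3 lay on opposite sides of 0 in each of 10 alternatives. Each was measured by 1 probe, so the alternatives that change the filter or the probe summary could not move it. Eif4enif1, which encodes a carrier of eIF4E into the nucleus, had -0.21 ± 0.20.

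**Figure D4:**
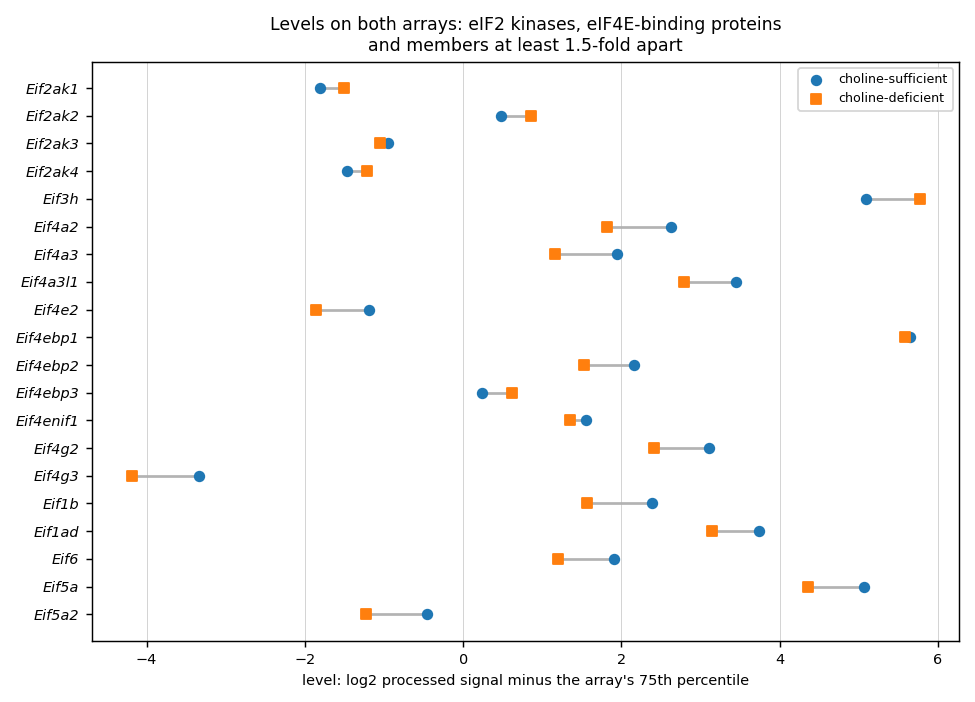
Level on each array (log2 processed signal minus the array's 75th percentile) of the eIF2 kinase genes, the eIF4E-binding protein genes and the members at least 1.5-fold apart. Squares are the choline-deficient and circles the choline-sufficient array, and levels are to be compared within a row only. Eif3h is the 1 member past 1.5-fold whose square lies to the right.

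The 4 eIF2 kinases respond to different stresses. Eif2ak2, the kinase PKR that senses double-stranded RNA and is induced by interferon, had levels of 0.86 and 0.48 and a difference of 0.38 ± 0.20 (chr17:79252168-79252227). Eif2ak1, the haem-regulated kinase, had levels of -1.50 and -1.81 and a difference of 0.31 ± 0.20 (chr5:144662840-144662899). Eif2ak3, the kinase PERK of the endoplasmic reticulum, had levels of -1.05 and -0.95 and a difference of -0.10 ± 0.20 (chr6:70855152-70855211), which was 0.17 with spike-in scaling. Eif2ak4, the kinase GCN2 that senses uncharged tRNA, averaged 0.26 ± 0.20 from levels of -1.21 and -1.47. Eif2ak1, Eif2ak2 and Eif2ak4 were above 0 in each of 10 alternatives, and all 4 differences were under 1.5-fold in the main processing.

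The 3 probes of Eif2ak4 disagreed, and their sequences are shown for that reason, with AATAAA in capitals.
Eif2ak4, probe 1, chr2:118253890-118253949 (+ strand): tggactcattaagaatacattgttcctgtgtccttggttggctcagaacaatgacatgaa
Eif2ak4, probe 2, chr2:118277964-118278023 (+ strand): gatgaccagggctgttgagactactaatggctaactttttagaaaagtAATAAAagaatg
Eif2ak4, probe 3, chr2:118300892-118300951 (+ strand): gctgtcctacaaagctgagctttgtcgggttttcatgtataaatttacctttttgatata
Probe 3 was the bright one, with levels of 1.56 and 1.03 and a difference of 0.52 ± 0.20. Probe 1 had levels of -2.65 and -3.29 and gave 0.64 ± 0.20. Probe 2, which holds the AATAAA, was as dim, at -2.54 and -2.16, and gave -0.39 ± 0.20. The files annotate probes 1 and 2 to Ensembl transcripts and probe 3 to a RefSeq transcript.

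The substrate of these kinases differed little. Eif2s1, the alpha subunit gene that carries the phosphorylated serine, had levels of 1.87 and 2.02 and averaged -0.15 ± 0.20 over a bright probe at -0.41 and a dimmer one at 0.11. Eif2s2, the beta subunit gene, averaged -0.02 ± 0.20 from levels of 3.91 and 3.94, over these probes.
Eif2s2, upstream probe, chr2:154698193-154698252 (- strand): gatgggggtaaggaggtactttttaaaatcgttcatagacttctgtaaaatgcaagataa
Eif2s2, downstream probe, chr2:154697153-154697212 (- strand): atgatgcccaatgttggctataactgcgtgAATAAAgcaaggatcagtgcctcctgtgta
The upstream probe of Eif2s2 had levels of 5.34 and 5.65 and a difference of -0.31 ± 0.20. The downstream probe, which holds an AATAAA, had 2.49 and 2.22 and a difference of 0.26 ± 0.20. Of the gamma subunit genes, the X-linked Eif2s3x averaged -0.25 ± 0.21 over probes between -0.44 and 0.13, and its Y-linked copy Eif2s3y had 0.10 ± 0.20. The sign of Eif2s2 turned in 3 of 10 alternatives, and that of each of the other 3 subunit genes in 2. The 5 eIF2B genes were below 0, from -0.49 ± 0.20 for Eif2b2 (levels 4.52 and 5.02) and -0.47 ± 0.20 for Eif2b1 (1.96 and 2.43) to -0.31 ± 0.20 for Eif2b3, -0.17 ± 0.20 for Eif2b5 and -0.15 ± 0.20 for Eif2b4, although Eif2b5 was above 0 with spike-in scaling (0.10) and Eif2b4 with spike-in scaling (0.12), quantile normalization and cyclic loess. Eif2a and Eif2d, whose products can deliver initiator tRNA without eIF2, had -0.39 ± 0.20 and -0.39 ± 0.20. A probe of Eif2d was printed 10 times on each array. Its levels on the choline-deficient array ran from -0.16 to -0.06 with a median of -0.14. On the choline-sufficient array they ran from 0.21 to 0.27 with a median of 0.25. How far apart these ranges lie depends on the scaling, and Eif2d as a whole had -0.11 with spike-in scaling. Over these spots the SD of the difference was 0.03, a measure of spot noise alone.

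Within eIF3, Eif3h stood apart as the 1 member of the family at least 1.5-fold higher. It encodes a subunit of the core octamer. Its levels were 5.77 and 5.09 and it was 1.60-fold higher, at 0.68 ± 0.20. Its probe at chr15:51618110-51618169 had levels of 6.64 and 6.16 and gave 0.48, while that at chr15:51621540-51621599 had 4.91 and 4.03 and gave 0.88. Eif3h was above 0 in each of 10 alternatives, between 0.48 and 0.98, but under 1.5-fold with median scaling (0.56) and with the brightest probe (0.48). Eif3e, another octamer gene on the same chromosome, had levels of 2.77 and 2.45 and a difference of 0.32 ± 0.20. The octamer gene Eif3l and the eIF3 gene Eif3d lie on chromosome 15 too and were below 0, at -0.25 and -0.16. The 9 other measured genes within 3 Mb of Eif3h had a median of -0.27, and the 17 within that distance of Eif3e had -0.23. The median of all measured genes was below 0 as well, at -0.10, and an effect of the region was not tested.

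The remaining 6 octamer genes were below 0, from -0.54 ± 0.20 for Eif3m, whose probes gave -0.46 and -0.61, through Eif3a, Eif3c, Eif3f and Eif3l to -0.15 ± 0.20 for Eif3k. With spike-in scaling Eif3f, Eif3k and Eif3l were above 0, at 0.017, 0.13 and 0.023, as were Eif3k and Eif3l after cyclic loess and Eif3k after quantile normalization. Over the 8 octamer genes the median was -0.25. Of the 6 other subunits Eif3g had -0.50 ± 0.20, Eif3b had -0.21 ± 0.20 and Eif3d, which can bind the cap itself, had -0.16 ± 0.20. Eif3b and Eif3d were above 0 with spike-in scaling, at 0.059 and 0.11, and Eif3d also after quantile normalization and cyclic loess. Eif3i had 0.054 ± 0.20, and -0.065 with median scaling. Eif3j1 and Eif3j2, near-identical neighbouring genes of a loosely held subunit that the probes may not separate, had 0.28 ± 0.20 each.

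The genes of eIF1, eIF1A, eIF5, eIF5B and eIF6, with the related Eif1ad, were below 0 in all 8 cases and in each alternative that measured them. Their median was -0.52, and 3 of these 8 (37.5%) were 1.5-fold lower, against 14.1% of all genes. Eif1b, a close copy of the start codon selection gene Eif1, had levels of 1.57 and 2.39 and was 1.77-fold lower, at -0.82 ± 0.20 (chr9:120404173-120404232). Eif1 had levels of 4.49 and 5.06 and a difference of -0.57 ± 0.20. Eif6 had levels of 1.20 and 1.90 and was 1.63-fold lower, at -0.71 ± 0.20. That mean rests on 1 dim probe at -1.32 (chr2:155650902-155650961), while the bright probes (chr2:155645718-155645777 and chr2:155648573-155648632) gave -0.39 and -0.41. Eif1ad had levels of 3.14 and 3.74 and was 1.51-fold lower, at -0.59 ± 0.20, from probes at chr19:5370188-5370247 and chr19:5371355-5371414 that gave -0.27 and -0.92. Neither Eif6 nor Eif1ad was 1.5-fold lower by its brightest probe. Eif1a, Eif1ax, Eif5 and Eif5b had between -0.48 and -0.34. Both eIF5A genes were past 1.5-fold. Eif5a, the widely expressed one, had levels of 4.35 and 5.07 and was 1.64-fold lower, at -0.72 ± 0.20 (chr11:69730687-69730746). Eif5a2 had levels of -1.22 and -0.45 and was 1.71-fold lower, at -0.77 ± 0.20 (chr3:28697445-28697504).

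**Figure D5:**
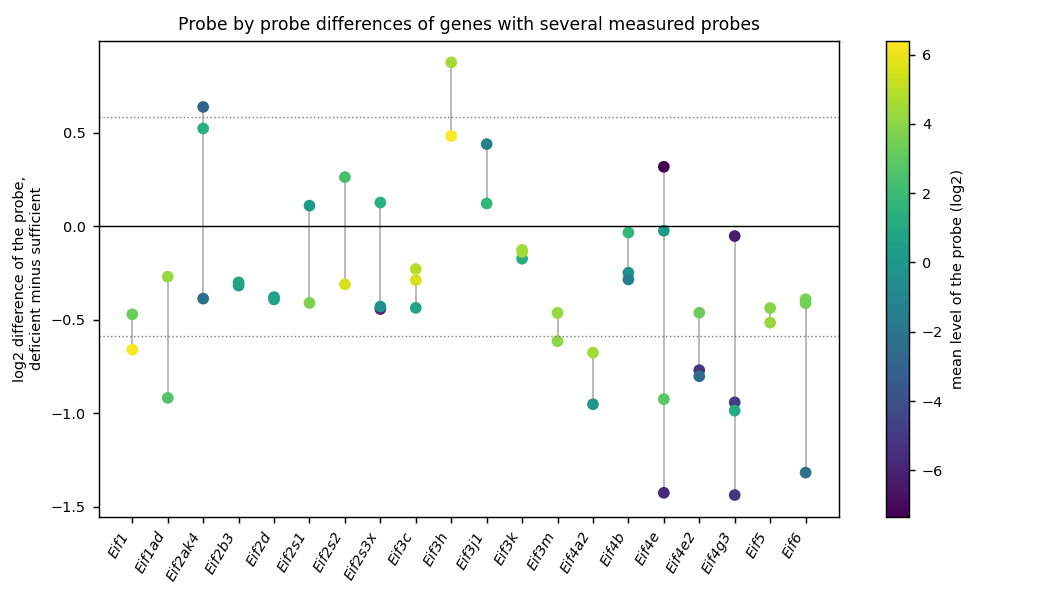
Difference of each measured probe for the 20 genes with several measured probes, coloured by the probe's mean level. In 5 genes (Eif2ak4, Eif2s1, Eif2s2, Eif2s3x and Eif4e) the probes lie on both sides of 0, and the widest ranges, in Eif4e and Eif4g3, include probes of low level.

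Across the 20 genes with several measured probes, the most downstream probe was higher than the most upstream one in 11 and lower in 9, with a median of 0.01. Of all 5100 genes that allowed this comparison 55.8% had the downstream probe higher. The ends were at least 1.5-fold apart in 4 of the 20 genes, namely Eif4e (1.74), Eif6 (0.93), Eif4g3 (-0.93) and Eif1ad (-0.65), against 19.5% of all genes, so a gap of that size between probes was about as frequent as on the array at large. Without the 5 genes whose probes had opposite signs, 50 members had a median of -0.36. Of these 12 (24.0%) were 1.5-fold lower and 1 (2.0%) higher, against 14.1% and 14.8% of all genes. The 5 genes left out were all under 1.5-fold, so leaving them out could only raise the members' shares. All genes were not filtered in this way, so the comparison is no check of the family's shares.

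Promoter sequences from RefSeq (GRCm38.p6) were at hand for 44 of the 56 genes, each as the 250 bases before a transcript start, with 57 such windows in all. Of these letters 6 motifs were searched on both strands, and genes differ in their number of windows. The E-box CACGTG, which MYC and related factors bind, was found for 9 members (20.5%), against 6.86% of 27025 genes. They were Eif1b, Eif3f, Eif3k, Eif4a1, Eif4e, Eif4g1, Eif4h, Eif5a and Eif5a2, with a median difference of -0.48, and -0.34 for the members without it. The ETS motif CCGGAAGT was found for 5 members (11.4%), against 3.23%, with a median of -0.68, and -0.35 for the members without it. These were Eif4e2, Eif5a and Eif5a2, all past 1.5-fold lower, and Eif3d and Eif3l, at -0.16 and -0.25. Eif5a and Eif5a2 also count among those with an E-box. Among the members 1.5-fold lower 3 of 10 with a promoter held an E-box, against 6 of 34 others. Of the other motifs TGATGNAA (ATF4) was found for 1 member (2.27%) against 3.91% of genes and TGACGTCA (CRE) for 0 against 1.77%. A longer NRF1 motif of 10 letters was found for 1 member against 0.877% and an interferon response motif of 10 letters for 2 members (4.55%) against 3.46%. The windows of Eif5a2 and of a start of Eif4e are shown as examples, each with 2 E-boxes, with CACGTG and CCGGAAGT in capitals.
Eif5a2, chr3:28781027-28781276 (+ strand): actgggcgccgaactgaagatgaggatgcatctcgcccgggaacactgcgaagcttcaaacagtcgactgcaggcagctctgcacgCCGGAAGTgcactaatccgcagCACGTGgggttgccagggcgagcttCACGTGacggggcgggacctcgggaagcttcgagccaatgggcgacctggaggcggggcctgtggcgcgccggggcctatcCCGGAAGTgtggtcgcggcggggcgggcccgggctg
Eif4e, chr3:138527018-138527267 (+ strand): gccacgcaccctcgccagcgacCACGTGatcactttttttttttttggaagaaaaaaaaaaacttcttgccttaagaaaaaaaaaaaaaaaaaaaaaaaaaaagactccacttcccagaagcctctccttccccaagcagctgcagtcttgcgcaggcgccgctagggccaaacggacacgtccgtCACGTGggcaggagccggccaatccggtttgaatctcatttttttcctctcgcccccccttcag
In Eif5a2 the E-boxes begin 142 and 117 bases before the start and the ETS motifs 164 and 36 bases before it. In this window of Eif4e the E-boxes begin 228 and 64 bases before the start, and the window of its other start holds 0. A match of letters is a description and does not show binding.

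Other genes of initiation and its control were counted from a list written apart from the family. Of its 31 genes, all measured, 4 were 1.5-fold lower, or 12.9%, and 1 (3.23%) was higher, with a median of -0.25. Those shares lie near or under the 14.1% and 14.8% of all genes. Ppp1r15a, which recruits the phosphatase of eIF2, was 2.83-fold lower, with levels of 3.44 and 4.94 and a difference of -1.50 ± 0.20. Mknk1, a kinase of eIF4E, had levels of -2.18 and -1.17 and was 2.02-fold lower, at -1.01 ± 0.20. Mknk2, the other eIF4E kinase gene of the list, had higher levels, -0.99 and -0.97, and a difference of -0.02 ± 0.21. Paip2, which withdraws the poly(A)-binding protein, was 1.61-fold lower and Impact, an inhibitor of Eif2ak4, 1.56-fold lower. Cyfip1, a partner of eIF4E in repressing translation, was 1.74-fold higher, at 0.80 ± 0.20. Atf4 had -0.34 ± 0.20, Mtor 0.12 ± 0.20 and Ppp1r15b, the constitutive partner of the eIF2 phosphatase, -0.14 ± 0.20. Of the 11 elongation and termination genes 10 were measured, with a median of -0.32, 2 lower and 0 higher. They were Eef1g, 1.72-fold lower, and the dim Gspt2, 2.66-fold lower, while Eef1a2 was above background on neither array.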

How the data were processed

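Both arrays were read with Agilent's Feature Extraction (version 12.1.1.1, as the submitters' processing notes give it) after 200 ng of RNA was labelled with Cy3, per the labels' protocols. The deposited scanner files hold an intensity for each spot, background-subtracted and detrended within the array and not normalized between arrays, per the file headers. In the authors' deposited values each spot is a linear ratio of its processed signal to an array constant (1609 and 1280, about the 75th percentiles), with medians of 0.0409 (choline-deficient) and 0.0376 (choline-sufficient). No source used here describes that step.

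Here the 75th percentile of log2 signals, controls left out, was subtracted on each array. Outlier spots were dropped, a probe's spots averaged, and a probe kept when a share of over 0.5 of its spots was well above background on both arrays (26461 of 39426). A gene's value and error are means over its kept probes. With 1 array per group there was no test, so members were counted at 1.5-fold (0.585 on the log2 scale) beside all genes. The alternatives changed the scaling, background correction, filter, probe summary and fold; the gap between group medians was added after seeing the data. Scripts were tested on simulated data.

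Members and lists were chosen with earlier results of these data known. By rule, all members are named, with full values for eIF2 kinases, eIF4E-binding proteins and members past 1.5-fold, and levels for at most 4 others per group. Probe sequences are those of genes whose probes differ in sign, 3 of 5 such genes being shown. Of related lists, members past 1.5-fold are named by rule. Atf4, Mtor, Ppp1r15b, Mknk2, the motifs, the promoters printed, the neighbour window and the probe order were chosen after values were seen. All 42 related genes were found by symbol. R 4.3.3 with limma 3.58.1 and the data.table package, version 1.17.8, Python 3.11.15, numpy 2.4.6, pandas 2.3.3 and matplotlib 3.10.9 were used.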

Additional observations from a re-analysis of the deposited data

How the results depend on the processing

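No paired analysis was possible because each group has 1 array. Of 244 values of counts, medians and gaps under the alternatives, 213 stayed within 1.5 times (counts) or within the scanner error (medians and gaps). The others follow, by setting. With median scaling the counts at 1.5-fold became 0 higher and 21 lower for the family, 2 lower for eIF2B, and 0 higher and 2 lower for eIF3. With spike-in scaling the medians became -0.070 for the family, 0.18 for the eIF2 subunits, -0.037 for eIF2B, 0.55 for the eIF2 kinases, 0.085 for eIF3 and -0.22 for eIF4, and the counts 4 higher and 0 lower for the family, 1 higher for the kinases, 2 higher for eIF3, and 1 higher and 0 lower for eIF4. After quantile normalization 7 members (12.7%, against 14.1% of all genes) and 4 eIF4 genes were lower, the gap between eIF4 and eIF3 was -0.52 and that between the kinases and the eIF2 subunits 0.16. After cyclic loess 6 members (10.9%, as of all genes) and 4 eIF4 genes were lower and the eIF3 median was 0.068. After normexp background correction 1 eIF3 gene was lower. With the brightest probe 0 members were higher, in eIF3 too. At 2-fold 0 were higher and 0 lower in the family, in eIF3 and in eIF4. The cause of these changes was not tested, other than the constants that the scalings add. Of 55 genes 39 kept their sign in each alternative run, 31 below and 8 above 0. The 12 lower members were below 0 in all 10. For the 35 genes with 1 measured probe, the changes of filter and probe summary could not alter a value. The deposited values repeat the main scaling. The gaps between group medians could not change with median scaling, spike-in scaling or the deposited values. The shift of -0.12 by median scaling is smaller than the scanner error, so each group median was bound to stay within it. Counts that also required a difference over 2 scanner errors could not drop a member, because 2 such errors are less than 1.5-fold. The 213 thus include values that could not have moved. The number of arrays limits the precision throughout, and for the dim probes of Eif4e, Eif4e3, Eif4g3 and Eif5b the signal over background does too.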
